A study of Canis lupus familiaris with 8 samples.

Results

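Genes that glucocorticoid hormones switch on were followed across the pituitary and the adrenal cortex of adult dogs. The genes were chosen by symbol: FKBP5, TSC22D3, PDK4, ANGPTL4, ERRFI1, KLF9, ZBTB16 and SGK1, of which 7 of 8 matched a row among 24580 measured genes. SGK1 matched no symbol. A row named SGK, described in the deposited tables only as an uncharacterized protein, lies between SLC2A12 and ALDH8A1 on chromosome 1, and SGK1 has the same neighbours in RefSeq. The row is given beside the others under its own name and is not counted among the 7 genes.

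Messenger RNA was sequenced in 8 libraries. They were stressed and unexposed Chinese Field Dog pituitary, stressed and unexposed Beagle pituitary, stressed and unexposed Chinese Field Dog adrenal cortex, and stressed and unexposed Beagle adrenal cortex, with 1 library for each combination. Stressed dogs had undergone chronic stress exposure, and the label of the other arm, non-disposal, was read here as unexposed. The labels do not give the stressor, its duration, whether a library came from 1 dog or a pool, or whether both glands came from the same dogs.

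Cortisol, made in the adrenal cortex, binds the glucocorticoid receptor NR3C1, which is held ready by the chaperone HSP90 and its partners and then acts on genes in the nucleus. In the pituitary the hormone closes a feedback loop by lowering POMC, the precursor of corticotropin. The genes described here are known mostly from human and mouse cells as targets of the receptor in many tissues, so their transcripts are widely used as a readout of its activity.

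Recovered read counts ranged from 14327356 to 18712033 per library, and levels are given as FPKM, fragments scaled to transcript length and sequencing depth. Markers of each labelled gland were abundant there. Summed over 11 pituitary genes they came to 82303 to 165837 FPKM in pituitary, against 31.6 to 54.1 FPKM in adrenal cortex, and GH1 was listed at 0 in the unexposed Beagle pituitary. Summed over 9 matched adrenocortical genes they came to 18647 to 23268 FPKM in adrenal cortex, against 70.4 to 101.7 FPKM in pituitary. The adrenal cortex libraries also held adrenal medulla markers. Summed over 8 genes these came to 3191 to 5585 FPKM there, against 1321 to 1674 FPKM in pituitary, where CHGB was the most abundant. The stressed Chinese Field Dog pituitary stood apart: 9 forebrain neuron markers summed to 1682 FPKM there, against 134.2 to 139.2 FPKM in the other pituitary libraries, and 8 glial markers to 639 FPKM, against 35.0 to 115.8 FPKM. NEUROD2, NEUROD6 and TBR1, which define forebrain neurons, had 0 reads in the other 3 pituitary libraries. Effects of the chosen genes fitted with the stressed Chinese Field Dog pituitary are therefore also given without it, for named genes or as counts. This covers tissue, stress and breed. For the other gene lists only the tissue effects are also given without it. In bulk tissue, fewer cells of a type and less RNA per cell cannot be told apart.

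The first question was how the 7 genes differ between the glands. FKBP5, TSC22D3 and PDK4 were lower in pituitary than in adrenal cortex, and none of the 7 genes was called higher in pituitary. Differences were tested with limma on log2(FPKM + 1) over 14808 genes, with breed and exposure in the model and the Benjamini-Hochberg adjusted p held to 0.05. The gland called 28.9% of all genes lower in pituitary and 28% higher, so 3 of 7 lower and 0 of 7 higher is a count beside a background in which most genes differed.

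FKBP5, on chromosome 12 at 4727911 to 4827214 (CanFam3.1), encodes a co-chaperone of the receptor that reduces its affinity for hormone and so forms part of a feedback. It read 37.6 and 39.8 FPKM in the stressed and unexposed Chinese Field Dog pituitary, and 53.6 and 80.3 FPKM in the stressed and unexposed Beagle pituitary. It read 141 and 149 FPKM in the stressed and unexposed Chinese Field Dog adrenal cortex, and 107 and 110.3 FPKM in the stressed and unexposed Beagle adrenal cortex. The 2 glands did not overlap, and 29.5% of all genes likewise had every pituitary library below every adrenal one. The pituitary mean was 52.8 ± 19.6 FPKM and the adrenal mean 126.8 ± 21.0 FPKM (SD, n = 4 each), a log2 difference of -1.30 with a standard error of 0.11 (limma adjusted p = 0.00186).

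TSC22D3, on chromosome X at 81232952 to 81296557, encodes the glucocorticoid-induced leucine zipper, which restrains inflammatory transcription factors. It read 19.8 and 19.3 FPKM in the stressed and unexposed Chinese Field Dog pituitary, and 22.1 and 32.1 FPKM in the stressed and unexposed Beagle pituitary. In adrenal cortex it read 83.1 and 80.1 FPKM in the stressed and unexposed Chinese Field Dog, and 85.4 and 119 FPKM in the stressed and unexposed Beagle. Again the glands did not overlap, with means of 23.3 ± 5.98 FPKM in pituitary and 91.9 ± 18.1 FPKM in adrenal cortex (SD, n = 4 each). This was the largest tissue difference among the 7 genes, a log2 of -1.94 with a standard error of 0.15 (limma adjusted p = 0.00142). Without the stressed Chinese Field Dog pituitary, the log2 differences were -2.08 for TSC22D3, -1.42 for FKBP5 and -1.18 for PDK4, and limma called all 3. Endothelial markers also differed between the glands. Summed over 8 matched genes they came to 91.9 to 113.8 FPKM in pituitary, against 182.4 to 251.5 FPKM in adrenal cortex, with none at 0. Their part in the tissue differences was not tested.

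PDK4, on chromosome 14 at 20825695 to 20839030, encodes a kinase that shuts off the pyruvate dehydrogenase complex and so spares glucose. It read 17.9 and 30.7 FPKM in the stressed and unexposed Chinese Field Dog pituitary, and 35.3 and 90.9 FPKM in the stressed and unexposed Beagle pituitary. In adrenal cortex it read 69.0 and 84.9 FPKM in the stressed and unexposed Chinese Field Dog, and 80.9 and 70.4 FPKM in the stressed and unexposed Beagle. The unexposed Beagle pituitary lay above all adrenal libraries, and the other 3 pituitary libraries lay below them all. The log2 difference was -1.03 with a standard error of 0.15 (limma adjusted p = 0.00659). The call was lost when the glands were paired within breed and exposure (limma adjusted p = 0.0663), and also, at log2 -0.91, without the stressed Beagle adrenal cortex (0.0586) or without the unexposed Chinese Field Dog adrenal cortex (0.0585).

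The other 4 genes were not called between the glands. ANGPTL4, on chromosome 20 at 52942075 to 52949053, encodes a secreted inhibitor of lipoprotein lipase and averaged 4.24 ± 2.01 FPKM in pituitary and 2.84 ± 0.384 FPKM in adrenal cortex (SD, n = 4 each). Its log2 difference of 0.37 just missed the threshold (limma adjusted p = 0.0515) and passed it under 3 other settings. KLF9, on chromosome 1 at 87109449 to 87140895, a transcription factor of the Kruppel-like family, averaged 9.94 ± 2.07 FPKM in pituitary and 10.4 ± 2.12 FPKM in adrenal cortex. ZBTB16, on chromosome 5 at 19088033 to 19267628, a zinc-finger transcriptional repressor also called PLZF, averaged 22.1 ± 9.85 FPKM in pituitary and 20.2 ± 3.30 FPKM in adrenal cortex. ERRFI1, on chromosome 5 at 61623510 to 61625977, which encodes an inhibitor of the epidermal growth factor receptor, averaged 16.1 ± 14.4 FPKM in pituitary and 9.91 ± 2.30 FPKM in adrenal cortex. The annotated ERRFI1 locus in the deposited tables is much shorter than the RefSeq gene, which bears on its FPKM level but not on ratios between libraries. For KLF9, ZBTB16 and ERRFI1 the libraries of the glands overlapped, and limma adjusted p-values lay between 0.408 and 0.898. ERRFI1 was called higher in pituitary, at log2 0.88, without the stressed Beagle pituitary or without the unexposed Chinese Field Dog pituitary.

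The spread was wider among the pituitary libraries for some of the genes. Among the pituitary libraries the highest value was 5.07 times the lowest for PDK4 and 4.69 times for ERRFI1, while among the adrenal libraries the same ratio was 1.23 for PDK4 and 1.80 for ERRFI1. For KLF9 it was 1.56 in pituitary and 1.57 in adrenal cortex, and for TSC22D3 1.66 and 1.48 in the same order. By mean level in adrenal cortex the genes ran FKBP5, TSC22D3, PDK4, ZBTB16, KLF9, ERRFI1 and ANGPTL4. FKBP5 overlapped in range with TSC22D3, TSC22D3 with PDK4, and KLF9 with ERRFI1, while ANGPTL4, at no more than 3.13 FPKM, lay below the rest. In pituitary the order was FKBP5, PDK4, TSC22D3, ZBTB16, ERRFI1, KLF9 and ANGPTL4, and each gene from FKBP5 to ERRFI1 overlapped in range with the next.

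**Figure D1:**
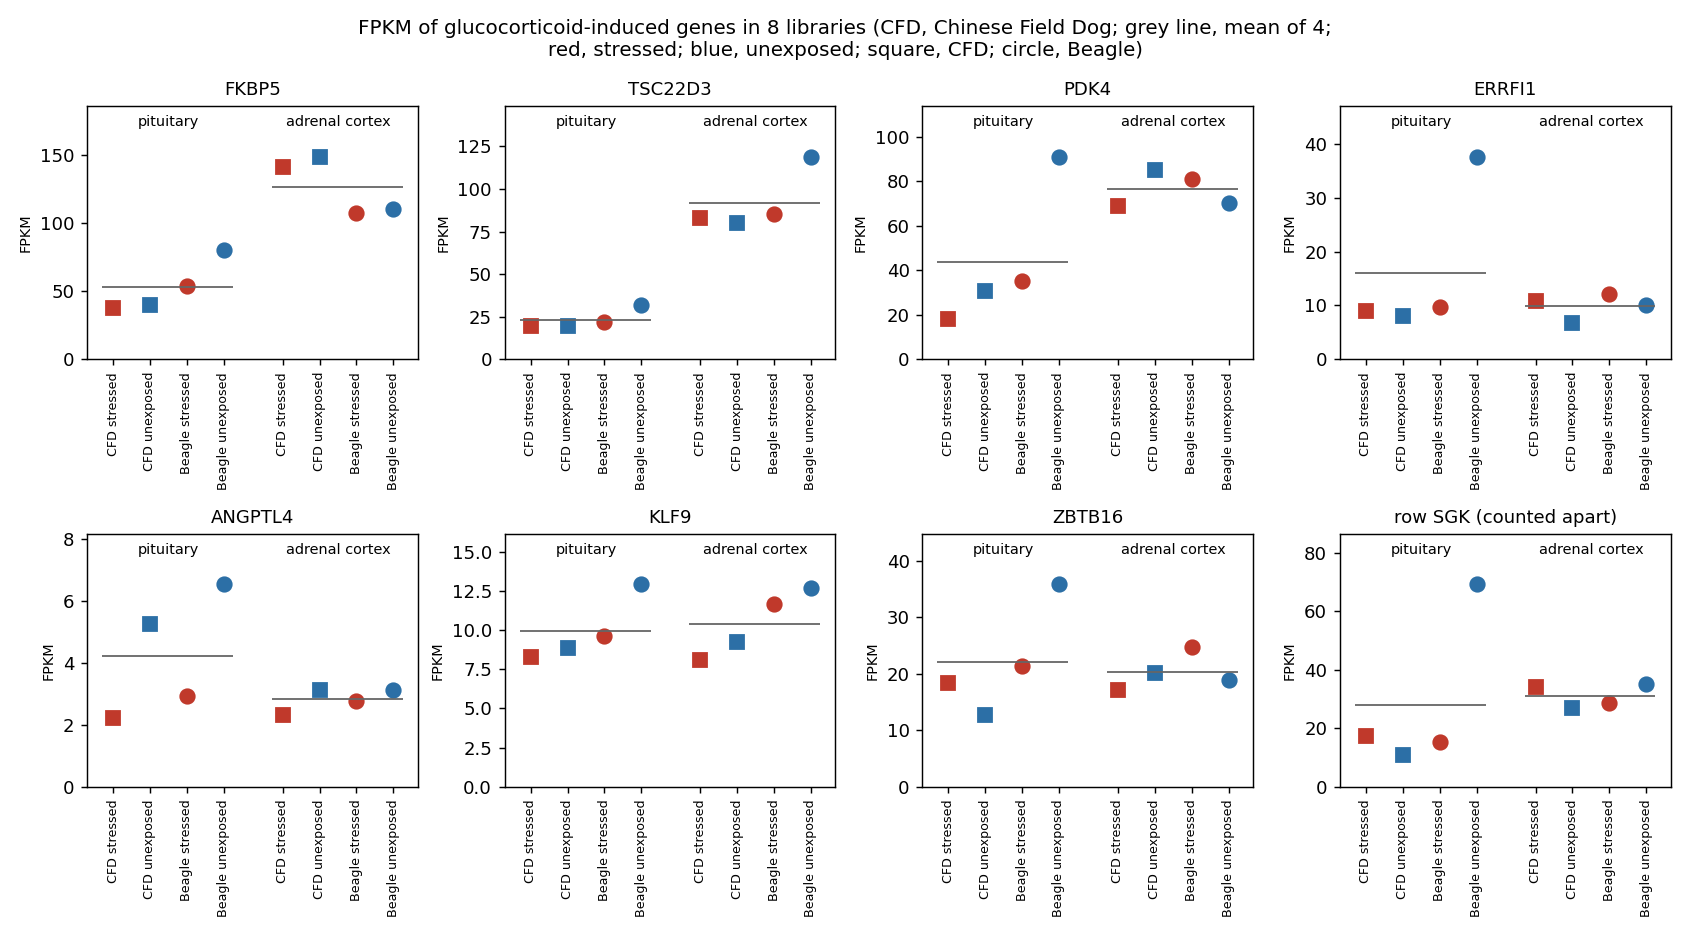
FPKM of each gene in each of 8 libraries, with pituitary left of adrenal cortex in every panel, red for stressed and blue for unexposed, squares for Chinese Field Dog and circles for Beagle, and a grey line at the mean of 4 libraries. FKBP5 and TSC22D3 separate the glands, and the unexposed Beagle pituitary is the highest pituitary library in every panel.

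The 7 genes shared a pattern that gland alone does not describe. The unexposed Beagle pituitary was the highest of the 4 pituitary libraries for 7 of 7 genes, where 26.6% of all genes had their highest pituitary value in that library. The genes were chosen with earlier results of these data known, so the count is a description. After centring each gene within its gland, the mean log2 level over the 7 genes was -0.44 in the stressed and -0.27 in the unexposed Chinese Field Dog pituitary. It was -0.10 in the stressed and 0.81 in the unexposed Beagle pituitary. The 4 adrenal libraries lay between -0.10 and 0.07, so the unexposed Beagle pituitary stood alone.

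Each gene was set against the mean of the other 6 across the 8 libraries, after the same centring. Pearson's r was 0.93 for PDK4, 0.872 for ERRFI1, 0.794 for ZBTB16, 0.776 for TSC22D3, 0.748 for FKBP5, 0.743 for KLF9 and 0.647 for ANGPTL4. The libraries are the same in every pairing and 1 of them is far from the rest, so these values are a description.

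The second question was what chronic stress did in the pituitary. In the Beagle, 7 of 7 genes were lower in the stressed library, where 50.5% of all genes were lower, and their median log2 ratio was -0.72 against -0.0027 over all genes. On the log2(FPKM + 1) scale 2 of the 7 were at least 2-fold lower, ERRFI1 and PDK4, against 1.09% of all genes. The added 1 shrinks ratios of low genes, and with a pseudocount of 0.1 ANGPTL4 made the count 3 of 7, against 1.63% of all genes. These are ratios between single libraries with no test. The 95% intervals that follow, exact by Clopper and Pearson on the recovered reads of both libraries, cover counting error only. They belong to the ratio of scaled reads, without the added 1. They are therefore not centred on the log2(FPKM + 1) ratios printed beside them.

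ERRFI1 read 9.73 FPKM in the stressed and 37.6 FPKM in the unexposed Beagle pituitary. Its log2 ratio was -1.85, or -1.96 on scaled reads (interval -2.18 to -1.74). PDK4 read 35.3 and 90.9 FPKM in the stressed and unexposed library, a log2 ratio of -1.34 (interval -1.44 to -1.29). ANGPTL4 read 2.94 and 6.54 FPKM in the same order, a log2 ratio of -0.94, or -1.16 on scaled reads (interval -1.45 to -0.88). Behind the ERRFI1 ratio stood 218 reads in the stressed and 816 in the unexposed library. ZBTB16 followed at a log2 ratio of -0.72, FKBP5 at -0.57, TSC22D3 at -0.52 and KLF9 at -0.39, and no interval of the 7 genes reached 0. Glial markers were higher in the same stressed library, with 5 of 5 counted genes higher, 3 of them at least 2-fold, and sums over 8 genes of 72.5 FPKM in the stressed and 35.0 FPKM in the unexposed library. Their part in these ratios was not tested.

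In the Chinese Field Dog pituitary, 4 of 7 genes were lower in the stressed library, where 53.4% of all genes were lower, and on the log2(FPKM + 1) scale 0 of 7 were at least 2-fold lower, against 1.7% of all genes. With a pseudocount of 0.1 ANGPTL4 was past 2-fold, so that the count was 1 of 7, against 2.89% of all genes. ANGPTL4 read 2.21 FPKM in the stressed and 5.26 FPKM in the unexposed library. Its log2 ratio was -0.96, or -1.25 on scaled reads (interval -1.59 to -0.92). PDK4 read 17.9 FPKM in the stressed and 30.7 FPKM in the unexposed library, a log2 ratio of -0.75 (interval -0.89 to -0.66). ZBTB16 went the other way, with 18.3 FPKM in the stressed and 12.8 FPKM in the unexposed library and a log2 ratio of 0.49 (interval 0.34 to 0.70). FKBP5, KLF9, TSC22D3 and ERRFI1 had log2 ratios between -0.08 and 0.15, with intervals that reached 0. Neuron and glial markers moved with this comparison, and their part in these ratios was not tested.

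PDK4, ANGPTL4, FKBP5 and KLF9 were lower in the stressed pituitary of both breeds, where 26.5% of all genes were. With the breeds as replicates, the log2 effect of stress in pituitary was -1.04 ± 0.22 for PDK4 and -0.95 ± 0.16 for ANGPTL4 (estimate ± standard error). Neither passed adjustment over all genes (limma adjusted p = 0.877 for each), and limma called 0.00675% of all genes. Of the 7 genes, 2 were lower at an unadjusted limma p under 0.05, against 1.35% of all genes. DESeq2 on recovered reads, an alternative to limma, called PDK4 (log2 -1.07, DESeq2 adjusted p = 0.00945), and edgeR did not (edgeR adjusted p = 0.784). The fitted effects of the other 5 genes lay between -0.85 for ERRFI1 and -0.12 for ZBTB16. Without the stressed Chinese Field Dog pituitary the effects are the Beagle ratios above, and limma called none of the 7.

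In adrenal cortex the stressed libraries showed no common direction. Of the 7 genes, 5 were lower in the stressed Chinese Field Dog library, where 48.3% of all genes were lower, and 4 were lower in the stressed Beagle library, where 49.7% of all genes were. None of the 7 was 2-fold different in either breed, where 1.03% of all genes (Chinese Field Dog) and 2.45% (Beagle) were 2-fold lower, and 0.99% and 0.83% in the same order were 2-fold higher. The largest ratio was that of ERRFI1, at 10.8 FPKM in the stressed and 6.69 FPKM in the unexposed Chinese Field Dog library, a log2 ratio of 0.62 (interval on reads 0.38 to 1.01). In the Beagle ERRFI1 read 12.0 and 10.1 FPKM in the stressed and unexposed library, with an interval that reached 0.

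TSC22D3 read 85.4 FPKM in the stressed and 119 FPKM in the unexposed Beagle adrenal cortex, a log2 ratio of -0.47, against 0.05 in the Chinese Field Dog. FKBP5, the gene of the 7 with the highest mean there, had log2 ratios of -0.08 (Chinese Field Dog) and -0.04 (Beagle). Fat-cell markers moved in the same adrenal libraries: 8 matched markers summed to 33.9 FPKM in the stressed and 145.7 FPKM in the unexposed Beagle, and to 106.4 and 70.6 FPKM in the stressed and unexposed Chinese Field Dog. Adrenal medulla markers were lower in the stressed library in 7 of 8 cases in the Beagle and in 6 of 8 in the Chinese Field Dog. Their median log2 ratios were -0.63 and -0.34 in the same order. The part of either set of markers in the adrenal ratios was not tested. With the breeds as replicates, the stress effect in adrenal cortex lay between -0.22 for ANGPTL4 and 0.43 for ERRFI1, and limma called 0 of the 7 genes, where it called 0.00675% of all genes. None of the 7 had an unadjusted limma p under 0.05, and edgeR and DESeq2 called none of them either.

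Whether stress acted differently in the glands was tested as an interaction. The effect in pituitary minus that in adrenal cortex was -0.99 ± 0.30 for PDK4 and -0.73 ± 0.23 for ANGPTL4 (log2 estimate ± standard error), and neither passed (limma adjusted p = 0.930 for each). The median difference over the 7 genes was -0.27, against -0.023 over all genes. For KLF9, TSC22D3 and ZBTB16 the sign of the difference changed when a single library was left out. Limma called none of the 7, and called 0.00675% of all genes. Without the stressed Chinese Field Dog pituitary the differences were -1.29 for PDK4 and -0.71 for ANGPTL4, and limma again called none of the 7.

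The third question was how the breeds differ. In pituitary, 7 of 7 genes were lower in the Chinese Field Dog than in the Beagle in the stressed pair and 7 of 7 in the unexposed pair, where 53.9% and 52.8% of all genes were lower, and 30.5% were lower in both pairs. In the unexposed pair 3 of 7 were at least 2-fold lower on the log2(FPKM + 1) scale, against 1.44% of all genes, and 4 of 7 with a pseudocount of 0.1, against 2.21%. That pair uses the same unexposed Beagle library as the Beagle stress ratio above, so the counts are not separate evidence. In the stressed pair, which does not use that library, 0 of 7 were 2-fold lower, against 2.39% of all genes. It uses the stressed Chinese Field Dog pituitary instead, the library with high forebrain neuron and glial markers. Each pair therefore holds a library that stood apart.

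In the unexposed pituitary pair, ERRFI1 read 8.02 FPKM in the Chinese Field Dog and 37.6 FPKM in the Beagle, a log2 ratio of -2.10. PDK4 read 30.7 and 90.9 FPKM in the same order, a log2 ratio of -1.54, and ZBTB16 read 12.8 and 35.8 FPKM, a log2 ratio of -1.42. FKBP5 read 39.8 and 80.3 FPKM, with a log2 ratio of -0.9955 on the log2(FPKM + 1) scale and -1.01 with a pseudocount of 0.1, so it is the gene that made the count 4. In the stressed pair PDK4 read 17.9 FPKM in the Chinese Field Dog and 35.3 FPKM in the Beagle, a log2 ratio of -0.94 (interval on reads -1.09 to -0.86). FKBP5 read 37.6 and 53.6 FPKM, a log2 ratio of -0.50 (interval -0.63 to -0.37). At both exposures the intervals of PDK4, FKBP5, ANGPTL4, TSC22D3 and ZBTB16 lay below 0, while those of ERRFI1 and KLF9 reached 0 in the stressed pair.

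With the exposures as replicates, the breed effect in pituitary was -1.24 ± 0.22 for PDK4 and -0.75 ± 0.16 for FKBP5 (log2 estimate ± standard error). Neither passed adjustment over all genes (limma adjusted p = 0.484 for PDK4 and 0.511 for FKBP5), and limma called 0.0135% of all genes. Of the 7 genes, 2 were lower at an unadjusted limma p under 0.05, against 3.15% of all genes. DESeq2 called PDK4 (log2 -1.27, DESeq2 adjusted p = 0.000112), and edgeR did not (edgeR adjusted p = 0.211). Without the unexposed Beagle pituitary the PDK4 estimate was -0.94, and without the stressed Chinese Field Dog pituitary it was -1.54, where that of FKBP5 was -0.9955 and limma called none of the 7. Leukocyte markers moved with breed: 9 matched genes summed to 112.3 and 88.7 FPKM in the stressed and unexposed Chinese Field Dog pituitary, against 34.7 and 30.4 FPKM in the stressed and unexposed Beagle pituitary, where MS4A1 had 0 reads in the stressed library. Glial markers were at least 2-fold higher in the Chinese Field Dog in 8 of 8 cases in the stressed pair and 4 of 5 in the unexposed pair. Forebrain neuron markers were so in 9 of 9 and 0 of 2 cases in the same order. Of all genes, 8.73% and 2.01% were. The part of these 3 sets of markers in the breed ratios was not tested.

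In adrenal cortex the genes split. FKBP5 was higher in the Chinese Field Dog at both exposures, with log2 ratios of 0.39 in the stressed and 0.43 in the unexposed pair, the opposite sign to pituitary. KLF9 was lower in the Chinese Field Dog at both exposures, at -0.48 in the stressed and -0.41 in the unexposed pair. The fitted breed effects were 0.41 for FKBP5 (limma adjusted p = 0.773) and -0.45 for KLF9 (limma adjusted p = 0.749), so neither was called, where limma called 0.027% of all genes. In all, 6 of 7 genes were lower in the Chinese Field Dog in the stressed pair, where 51% of all genes were, and 3 of 7 in the unexposed pair, where 55.6% were. Other tissue moved with breed in these libraries. DBH, an enzyme of catecholamine synthesis in the adrenal medulla, read 239 and 331 FPKM in the stressed and unexposed Chinese Field Dog, against 467 and 758 FPKM in the stressed and unexposed Beagle. The other such enzymes, TH and PNMT, were also lower in the Chinese Field Dog at both exposures. Fat-cell markers were higher in the Chinese Field Dog in 7 of 7 cases in the stressed pair and lower in 7 of 7 in the unexposed pair. The part of either in the breed ratios was not tested.

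**Figure D2:**
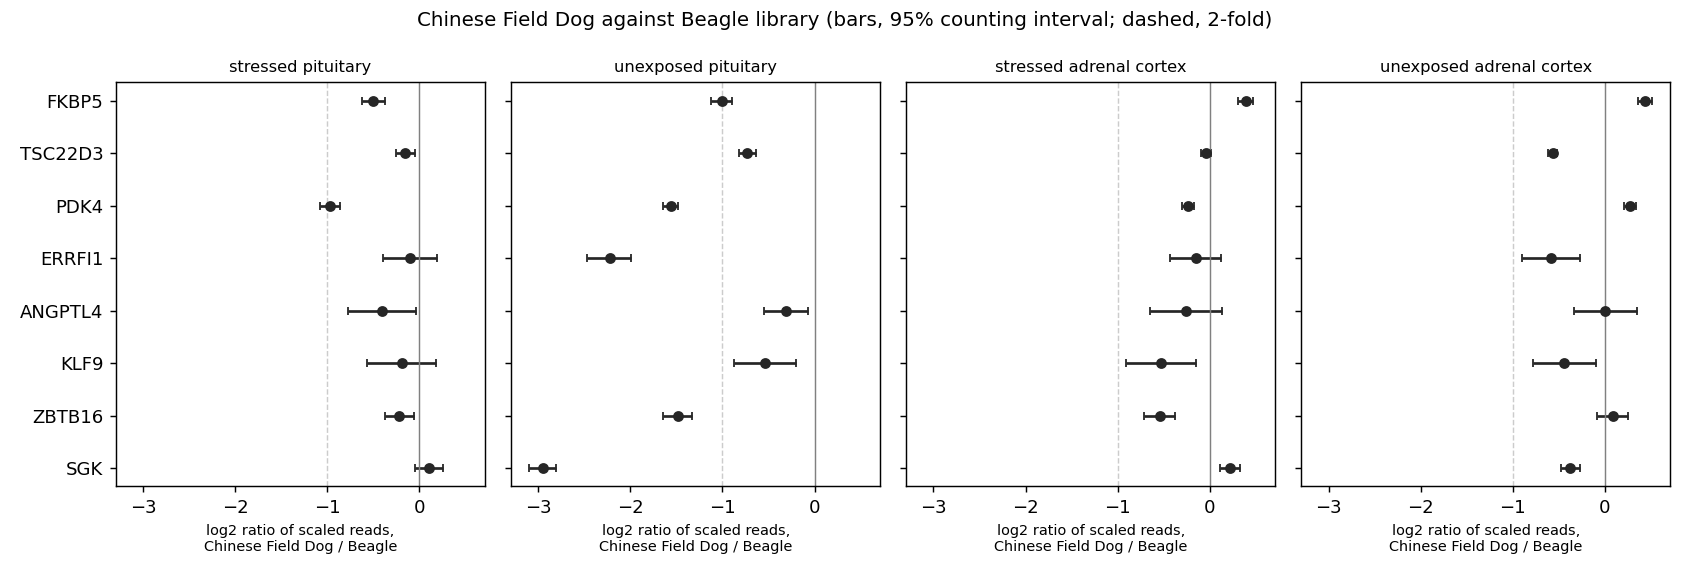
Log2 ratio of scaled reads, Chinese Field Dog over Beagle, for each gene at each exposure and gland, with bars for the 95% counting interval and dashed lines at 2-fold. In both pituitary panels the 7 genes lie below 0, and in both adrenal panels FKBP5 lies above 0.

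The row SGK (ENSCAFG00000000217), on chromosome 1 at 27085979 to 27196521, had lower ratios than any of the 7 genes for stress in the Beagle pituitary and for breed in the unexposed pituitary. SGK1, whose neighbours it shares, encodes a kinase that promotes sodium uptake in epithelia. SGK read 17.3 and 10.8 FPKM in the stressed and unexposed Chinese Field Dog pituitary, and 15.2 and 69.3 FPKM in the stressed and unexposed Beagle pituitary. In adrenal cortex it lay between 26.9 and 35.3 FPKM in all 4 libraries. The Beagle pituitary stress ratio was -2.12 on the log2(FPKM + 1) scale, while that of the Chinese Field Dog was 0.64. Its r with the mean of the 7 genes was 0.902. Limma called the row in no contrast over all libraries, but called it between the glands without the stressed Chinese Field Dog pituitary (log2 -1.21, limma adjusted p = 0.0256), and likewise without the unexposed Beagle pituitary. The smallest p-value for it in the authors' deposited table was 0.00595, in the unexposed pituitary breed comparison, with an FDR of 0.375. For the 7 genes the authors' deposited table gave FDR values between 0.910 and 0.999 in all 8 comparisons.

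Genes of hormone reception were measured beside the targets, and 11 of 12 matched. NR3C1, the glucocorticoid receptor, read 26.2 FPKM in the stressed and 26.2 FPKM in the unexposed Chinese Field Dog pituitary, and 25.9 and 31.3 FPKM in the stressed and unexposed Beagle pituitary. In adrenal cortex NR3C1 lay between 10.2 and 11.6 FPKM, so the receptor was higher in pituitary, the opposite of FKBP5, TSC22D3 and PDK4 (log2 1.24, limma adjusted p = 0.0014). NR3C2, the mineralocorticoid receptor, was also higher in pituitary (log2 2.01, limma adjusted p = 0.000824), as were the receptor coactivators NCOA1 (log2 0.80) and NCOA2 (log2 0.87). FKBP4, the co-chaperone that favours receptor transport, was lower in pituitary (log2 -1.17, limma adjusted p = 0.00172).

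HSD11B2, the enzyme that inactivates cortisol, differed most between the glands. It read 1.69 to 3.46 FPKM in pituitary, against 557 to 1035 FPKM in adrenal cortex (log2 -7.89, limma adjusted p = 0.000151). HSD11B1, which regenerates cortisol, read 9.36 to 15.5 FPKM in pituitary and 14.1 to 17.8 FPKM in adrenal cortex and was not called. Without the stressed Chinese Field Dog pituitary NR3C1 (log2 1.18), NR3C2, NCOA1, NCOA2, FKBP4 and HSD11B2 kept their direction and their call. In the stress contrasts over all libraries limma called 0 of these 11 genes in either gland. In the Beagle pituitary 9 of 11 were lower in the stressed library, where 50.5% of all genes were, with a median log2 ratio of -0.16, between -0.48 for the co-chaperone STIP1 and 0.31 for HSD11B2.

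A list of 35 other genes known as receptor targets was examined in the same way, of which 32 matched and 29 passed the mean of 1 FPKM. Limma called 8 of 29 higher and 8 of 29 lower in pituitary, shares close to those over all genes, 28% higher and 28.9% lower. Without the stressed Chinese Field Dog pituitary it called 8 higher and 7 lower. DUSP1, a phosphatase of stress kinases, was lower in pituitary (log2 -2.50), and so were CRISPLD2, a secreted protein (log2 -2.68), and CD163, the haemoglobin receptor of macrophages (log2 -3.24). SCNN1A, a subunit of the epithelial sodium channel, was higher in pituitary (log2 3.84), as was GPX3, a secreted glutathione peroxidase (log2 2.49).

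In the Beagle pituitary 22 of these 29 targets were lower in the stressed library, where 50.5% of all genes were, and 4 of 29 were at least 2-fold lower, against 1.09% of all genes. Their median log2 ratio was -0.34, against -0.0027 over all genes. This list was also chosen with earlier results of these data known, so its counts are a description. The lowest ratio was that of RASD1, a small GTPase, which read 102.5 FPKM in the stressed and 321 FPKM in the unexposed library, a log2 ratio of -1.64. The highest was that of MAOA, which breaks down monoamines, at a log2 ratio of 0.55. In the Chinese Field Dog pituitary 17 of 29 were lower, where 53.4% of all genes were, with a median of -0.11, between -0.97 for CD163 and 1.20 for GLUL, the glutamine synthetase. Glial markers were high in the same library, and their part in the GLUL ratio was not tested. RASD1 read 114.4 and 99.6 FPKM in the stressed and unexposed Chinese Field Dog pituitary, so the unexposed Beagle library was alone at its level. In the stress contrasts over all libraries limma called 0 of the 29 in either gland.

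Immediate-early genes, which respond within minutes to many signals, were also mostly lower in the stressed Beagle pituitary. Of 14 counted there, 11 were lower, where 50.5% of all genes were, and 6 were at least 2-fold lower, against 1.09% of all genes, with a median log2 ratio of -0.87. DUSP2, a nuclear phosphatase, read 1.32 FPKM in the stressed and 22.4 FPKM in the unexposed Beagle pituitary, and 3.82 and 1.63 FPKM in the stressed and unexposed Chinese Field Dog pituitary. IER2 was the highest of the list in the Beagle, at a log2 ratio of 0.74, and FOS read 71.8 FPKM in the stressed and 49.9 FPKM in the unexposed library. In the Chinese Field Dog pituitary 12 of 15 were higher in the stressed library, where 6856 of 14720 genes were. Their median was 0.23, between -0.38 for IER2 and 2.40 for EGR3. Forebrain neuron markers were high in the same stressed library, and their part in these ratios was not tested. The unexposed Beagle pituitary was thus high for many immediate-early genes as well as for the glucocorticoid-induced genes, and the part of the immediate-early signal in these levels was not tested.

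Clock genes, a further set that glucocorticoids reach through PER1, were measured for 13 of 14. In the Beagle pituitary 8 of 13 were lower in the stressed library, near the 50.5% over all genes, with a median log2 ratio of -0.07. PER1, itself a receptor target, was the lowest at -0.93, with 36.7 FPKM in the stressed and 70.9 FPKM in the unexposed library. PER1 was also lower in the stressed Beagle adrenal cortex, at 39.7 against 87.3 FPKM, a gland where the 7 genes did not share a direction.

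**Figure D3:**
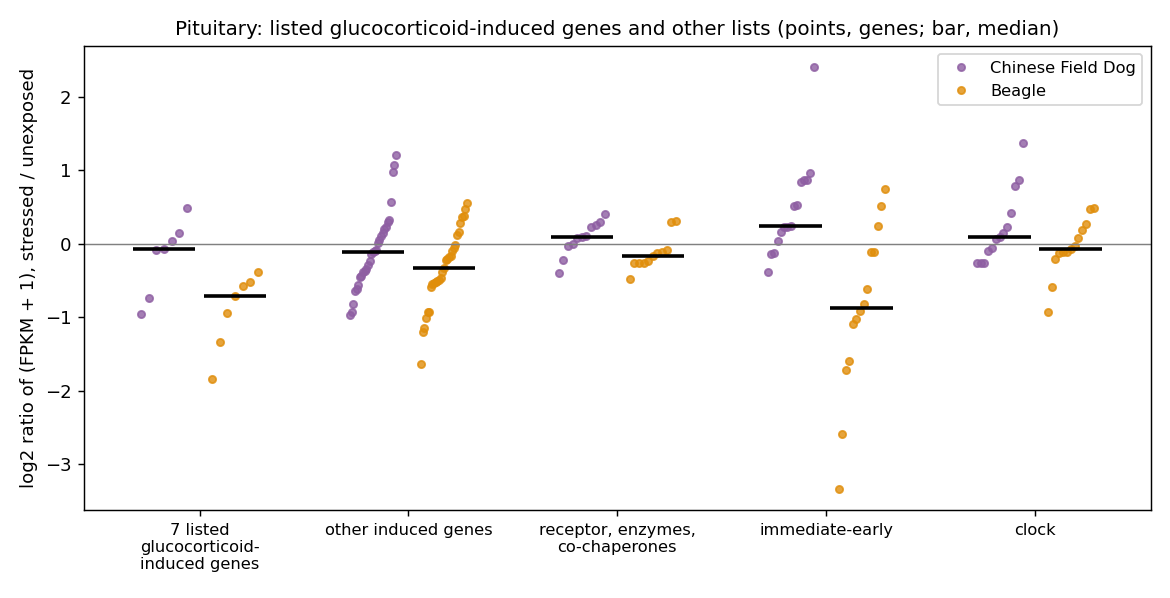
Log2 ratio of (FPKM + 1), stressed over unexposed, in the pituitary of each breed, for the 7 listed genes and the other gene lists. Each point is a gene of at least 1 FPKM on average in the pair. In the Beagle the medians lie at -0.72 for the 7 genes, -0.34 for the other targets and -0.87 for the immediate-early genes.

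Across the 8 libraries, the 5 genes most like the mean centred profile of the 7, out of 11757 ranked, were MACC1 (r = 0.981), TP53BP1 (0.978), EGFR (0.978), MCL1 (0.978) and NFKBIA (0.977). NFKBIA, an inhibitor of NF-kappaB and itself on the list of other targets, read 40.9 and 50.2 FPKM in the stressed and unexposed Chinese Field Dog pituitary, and 52.9 and 101.7 FPKM in the stressed and unexposed Beagle pituitary. EGFR, a growth factor receptor, read 11.8 and 12.2 FPKM in the stressed and unexposed Chinese Field Dog pituitary, and 15.1 and 26.6 FPKM in the stressed and unexposed Beagle pituitary. Both share the high unexposed Beagle library, which dominates the likeness over so few points. Taken gene by gene, the closest profile was that of RAB19 for FKBP5 (r = 0.99), TTC24 for PDK4 (0.991), SLC37A3 for ERRFI1 (0.985), DLK1 for ANGPTL4 (0.978), PRDM10 for TSC22D3 (0.988), KANSL3 for KLF9 (0.989), CACNA1A for ZBTB16 (0.98) and DUSP10 for the row SGK (0.997). DLK1 read 3.74 and 16.0 FPKM in the stressed and unexposed Chinese Field Dog pituitary. It read 7.14 and 19.4 FPKM in the stressed and unexposed Beagle pituitary, the same order of pituitary libraries as ANGPTL4. In adrenal cortex MACC1, RAB19, TTC24, DLK1 and CACNA1A read no more than 0.041, 0.13, 0.039, 0.222 and 0.301 FPKM in that order. Their likeness therefore rests on the pituitary libraries.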

How the data were processed

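Total RNA of dog adrenal cortex and pituitary was sequenced as mRNA libraries made with a TruSeq kit, per the labels' protocols, whose extraction note names spleen although every tissue label gives pituitary or adrenal cortex. Reads were aligned with TopHat to CanFam3.1, per the submitters' processing notes, and the program that counted them is not given in the sources used here. The authors deposited 8 tables, each of 2 libraries and 24580 genes, and 16 of 16 repeated columns were identical. The deposited FPKM values are the levels used. The deposited scaled counts are a signal per gene, in whole multiples of a step of 0.899 to 1.17 per library. Dividing by the step gave reads, and 99.5% to 99.6% of values under 1000 reads were whole within 0.02. Reads of 2 libraries, Chinese Field Dog pituitary and Beagle adrenal cortex, both stressed, are near true counts and not exact. The p-value, FDR and log2 ratio columns are the authors' own and were only quoted.

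The test was limma (version 3.58.1, run in R 4.3.3) on log2(FPKM + 1) of genes with a mean of at least 1 FPKM, with 6 coefficients (breed and exposure within each tissue) and 2 residual degrees of freedom, with Benjamini-Hochberg adjustment over every gene of a contrast and a threshold of 0.05. Breeds serve as replicates of stress and exposures as replicates of breed. The spread behind a p-value is therefore the breed-by-exposure interaction within a gland, taken from single libraries. It holds any real difference between the breeds in their stress ratios as well as dog-to-dog and technical variation. These cannot be told apart. A fold change on this scale understates that of low genes. Pairs of single libraries have no test. Alternatives used edgeR 4.0.16 (TMM) and DESeq2 1.42.0 on recovered reads. The limma fit and the intervals were tested on simulated data. The noise simulated for limma was independent between libraries, with no breed-by-exposure difference and no library that stood apart. The simulation therefore does not cover those features of these data.

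The genes and lists were chosen with earlier results of these data known. All 7 genes passed the filter. Named in the lists were the genes with the highest and lowest ratio, up to 5 per list that passed the test, the most abundant marker, and the genes whose profile was most like the members'. FOS and HSD11B1 were named after their values were seen. FKBP5 overlaps 1 U6 locus with 0 reads, and the loci of the others overlap none. Columns of other libraries not used numbered 0.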

Additional observations from a re-analysis of the deposited data

Results flagged for a closer look

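With 4 libraries per gland and no replicate of any combination, a library is far from the other 3 when its gap to the nearest exceeds Dixon's 95% critical share of the whole range, which chance alone gives in about 1 of 20 groups. ERRFI1 in the unexposed Beagle pituitary had a gap of 0.942 of the range, and the row SGK in the same library 0.889. TSC22D3 in the unexposed Beagle adrenal cortex had a gap of 0.863.

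In 5 cases the stress ratio had opposite signs in the breeds with the counting intervals of both breeds clear of 0, and the difference was not tested. The log2 stress ratio in the Chinese Field Dog minus that in the Beagle was 1.21 for ZBTB16 in pituitary and -0.59 in adrenal cortex, -0.49 for PDK4 in adrenal cortex, and 2.75 for the row SGK in pituitary and 0.63 in adrenal cortex.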

How the results depend on the processing

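No analysis with a replicate block was possible for stress or breed because each combination has 1 library and the numbers in the sample titles mark exposure, not replicates. Pairing the glands within breed and exposure called 8770 genes between them, against 8426 without the pairing, and ended the call of PDK4. FKBP5 and TSC22D3 stayed lower in pituitary and called under every alternative fit. Genes called numbered 1 for stress in adrenal cortex, 1 for stress in pituitary, 4 for breed in adrenal cortex, 2 for breed in pituitary and 1 for the difference of the stress effects between the glands. In that order DESeq2 called 10, 67, 103, 225 and 29. EdgeR called 0 in the first 3 and for the difference of stress effects (564, 830, 1255 and 744 genes at an unadjusted p under 0.05). With at least 50 reads 0 were called in the same 4 (404, 641, 930 and 509 unadjusted). A pseudocount of 0.1 gave 0, 2, 4 for breed in pituitary and 0 for the difference of stress effects, no filter gave 0 for stress in adrenal cortex and 0 for the difference, and no trend gave 2 for the difference. Leaving out 1 library in turn gave 0 to 2 genes called for stress in adrenal cortex, 0 to 107 for stress in pituitary, 0 to 28 and 0 to 115 for breed in adrenal cortex and pituitary, 0 to 59 for the difference and 4043 to 7421 for tissue.

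Genes 2-fold different numbered 338 for stress in Beagle pituitary, and 548 with a pseudocount of 0.1 or 194 with at least 50 reads. Likewise 275 became 450 or 126, and 155 with TMM-scaled reads, for stress in Chinese Field Dog adrenal cortex, 498 became 801 or 325 for breed in unexposed pituitary, and 409 became 682 or 239 for breed in stressed adrenal cortex. For stress in Beagle adrenal cortex, 450 became 281 with at least 50 reads. Counting the row SGK, chosen after seeing the data, gives 1 gene higher in the stressed pituitary breed pair and 2 in the stressed adrenal pair.

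The row SGK was called between the glands without the stressed Chinese Field Dog or the unexposed Beagle pituitary. ANGPTL4 was called between the glands with at least 50 reads, with no trend, and by edgeR. ZBTB16 between the glands became -0.0356 with libraries centred on their median, and the row SGK for stress in adrenal cortex became -0.0036 in edgeR. The likeness of MACC1 and EGFR to the mean profile became -0.43 and -0.36 without centring. Both genes were higher in pituitary. MACC1 read 1.74 to 3.23 FPKM there and at most 0.041 FPKM in adrenal cortex. EGFR read 11.8 to 26.6 FPKM in pituitary and 1.82 to 2.57 FPKM in adrenal cortex. FKBP5, TSC22D3 and PDK4 were lower in pituitary. Centring removes differences between the glands, and their part in the change of r was not tested.

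Without each library in turn, log2 values had these lowest and highest values. Between the glands they lay between -0.12 and 0.88 for ERRFI1, -0.14 and 0.014 for KLF9, -0.26 and 0.34 for ZBTB16 and -1.21 and 0.16 for the row SGK. For stress in pituitary they lay between -1.85 and 0.15 for ERRFI1, -0.52 and 0.0315 for TSC22D3, -0.72 and 0.49 for ZBTB16 and -2.12 and 0.64 for SGK. For stress in adrenal cortex they lay between -0.30 and 0.20 for PDK4, -0.47 and 0.052 for TSC22D3, -0.22 and 0.37 for ZBTB16 and -0.30 and 0.33 for SGK. For breed in adrenal cortex they lay between -0.18 and 0.0028 for ANGPTL4, -0.23 and 0.27 for PDK4, -0.51 and 0.076 for ZBTB16 and -0.38 and 0.25 for SGK, and for breed in pituitary between -2.58 and 0.17 for SGK. For the difference of the stress effects they lay between -0.24 and 0.0618 for KLF9, -0.31 and 0.24 for TSC22D3, -0.79 and 0.41 for ZBTB16 and -2.13 and 0.62 for SGK.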
